A study of Mus musculus with 6 samples.

Results

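The 138 genes described here belong to the developmental transcription factor families Hox, Pax, Lhx, sine oculis homeobox, Nkx, Tbx, Irx, Dlx and Sox and to the Wnt ligand family. They were taken by symbol from a table of 24421 genes, leaving out Pax5 and Tbx21, which have known roles in lymphocytes. Of the 138, 118 are transcription factor genes, 19 encode secreted WNT ligands and 1, Nkx2-2os, is an antisense RNA that shares the Nkx2-2 name. Values are FPKM, which scales sequenced fragments by transcript length and library size, from SMART-seq of poly(A) RNA of regulatory T cells (Treg) of wild-type mice. Spleen and lymph nodes were the source of the cells. There were 3 groups of 2 libraries: stimulated with iBP, stimulated without it, and unstimulated. The design text describes iBP as inhibiting H2AK119ub1, the ubiquitin mark on histone H2A, and says that the activation was done in vitro. The kind of stimulus, its length, the dose of iBP, the age of the mice and whether animals were pooled are not given in the labels.

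The transcription factors of these families bind DNA and lay down position and tissue identity in the embryo, and WNT ligands carry signals between cells. In mouse embryonic stem cells many genes of these families, though not all, are textbook targets of the Polycomb complexes. At such targets PRC1 places H2AK119ub1 and PRC2 places H3K27me3 over the CpG-rich start regions, and both marks go with silence. KDM2B, a subunit of the variant complex PRC1.1, binds unmethylated CpG dinucleotides and brings that complex to such regions. Neither mark was measured in these libraries, so whether the 138 genes carried it in Treg is unknown. Whether iBP lowered H2AK119ub1 in these cells is unknown for the same reason. The question addressed was whether any of the 138 genes was switched on with iBP.

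Most of the 138 genes were silent in every library. In the libraries stimulated with iBP, 122 and 121 were listed at 0 FPKM, against 120 and 125 in stimulated and 128 and 121 in unstimulated libraries. In all, 107 of 138 (77.5%) were at 0 in all 6 libraries, where 34.3% of all genes in the table were. Only 8 (5.80%) were above 0 in all 6, against 46.0% of all genes. The highest value of any of them was 2.34 FPKM. Read depth is unknown, so a value of 0 means that a gene was not detectable at the depth of that library.

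**Figure D1:**
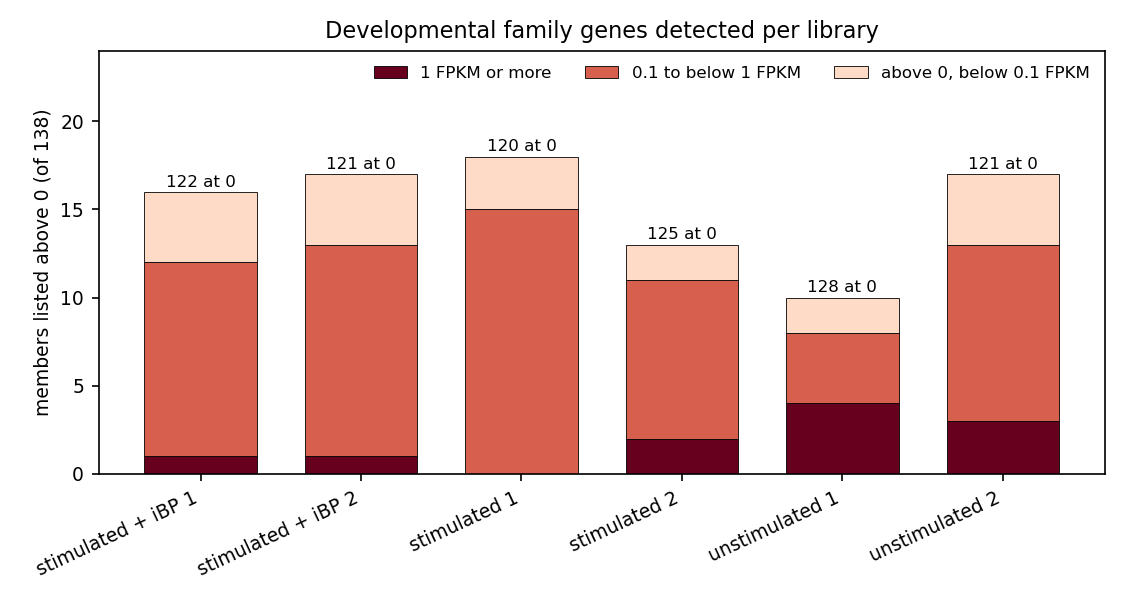
Number of the 138 genes listed above 0 in each library, stacked by FPKM class, with the number at 0 written over each bar; groups run from stimulated with iBP to unstimulated. Both iBP bars, at 16 and 17, lie between the stimulated bars at 18 and 13, and unstimulated replicate 1 has the shortest bar, at 10.

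Counts of detected genes in the iBP libraries lay within those of the libraries without it. Above 0 were 16 and 17 genes with iBP, 18 and 13 in stimulated and 10 and 17 in unstimulated libraries. At 0.1 FPKM or more, the detection level used here, were 12 and 13 genes with iBP (mean 12.5 ± 0.707), 15 and 11 in stimulated (13.0 ± 2.83) and 8 and 13 in unstimulated libraries (10.5 ± 3.54; SD, n = 2 libraries per group). At 1 FPKM or more were 1 and 1 genes with iBP, 0 and 2 in stimulated and 4 and 3 in unstimulated libraries. The difference of the means between iBP and stimulated libraries, −0.5 genes at 0.1 FPKM, was smaller than the spread within the groups (SD 2.06); it was 2 genes after rescaling to TPM and ranged from −2.5 to 1.5 with 1 library left out. With 2 libraries a group and genes chosen by name, no p is attached to these counts.

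The summed FPKM of the 138 genes was 5.76 and 6.43 with iBP, 4.23 and 5.89 in stimulated and 8.60 and 7.35 in unstimulated libraries. The iBP and stimulated sums overlapped, as the lower iBP sum lay below the higher stimulated one. The difference of their means, 1.03 FPKM, was however larger than the spread within these groups (SD 0.896). It stayed positive under each scaling and with any 1 library left out. With 2 libraries a group this difference was not tested. The mean of Tbx6 was 1.28 FPKM with iBP against 0.197 in stimulated libraries, and that of Wnt10a 0.736 against 0.0659. Together Tbx6 and Wnt10a differed by more than the whole sum did, so the other genes together summed lower with iBP. Both unstimulated sums lay above the other 4, and most of that excess came from Wnt10a and Wnt3, described below. In bulk RNA, fewer cells that express a gene and less RNA per cell cannot be told apart.

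No gene of the 138 met the rule for a gene switched on with iBP, which was 0.1 FPKM or more in both iBP libraries and less in the other 4. Of the 138, 118 were below 0.1 FPKM in the 4 libraries without iBP, and 0 of them reached it in both iBP libraries; over the whole table the share was 0.456% (46 of 10077). The same rule for the other groups also gave 0, with 0.561% of all genes for stimulated and 0.443% for unstimulated libraries. A count of 0 is thus near the share of the table. Counting any value above 0, or setting the level at 0.5 or 1 FPKM, left the count for iBP at 0; at 1 FPKM the count for unstimulated libraries was 1, Wnt10a.

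Single-library detections were spread over all groups. Of the 113 genes at 0 in the 4 libraries without iBP, 6 (5.31%) were above 0 in at least 1 iBP library, where 6.83% of such genes in the table were. The corresponding counts were 3 (2.73%, against 8.49% in the table) for stimulated and 5 (4.46%, against 5.63%) for unstimulated libraries. In the iBP libraries the 6 were Wnt6 (0.378 FPKM) and Wnt11 (0.310) in replicate 1 and Lhx1 (0.202), Tbx2 (0.0730), Wnt7b (0.0619) and Sox8 (0.0795) in replicate 2. Each was seen in 1 iBP library and listed at 0 in the other. In stimulated libraries they were Six4 and, in replicate 1, Sox18 (0.252 FPKM) and Nkx6-3 (0.0217). In unstimulated libraries they were Pax6 (0.0519 FPKM), Tbx19 (0.324), Hoxb5 (0.223), Six3 (0.0787) and Wnt8b (0.116), all 5 in replicate 2. Six4 alone was above 0 in both libraries of 1 group and at 0 elsewhere, at 0.0240 and 0.0257 FPKM in stimulated libraries. That was 1 of the 110 genes at 0 in the other 4 libraries, against 0.884% of such genes in the table.

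**Figure D2:**
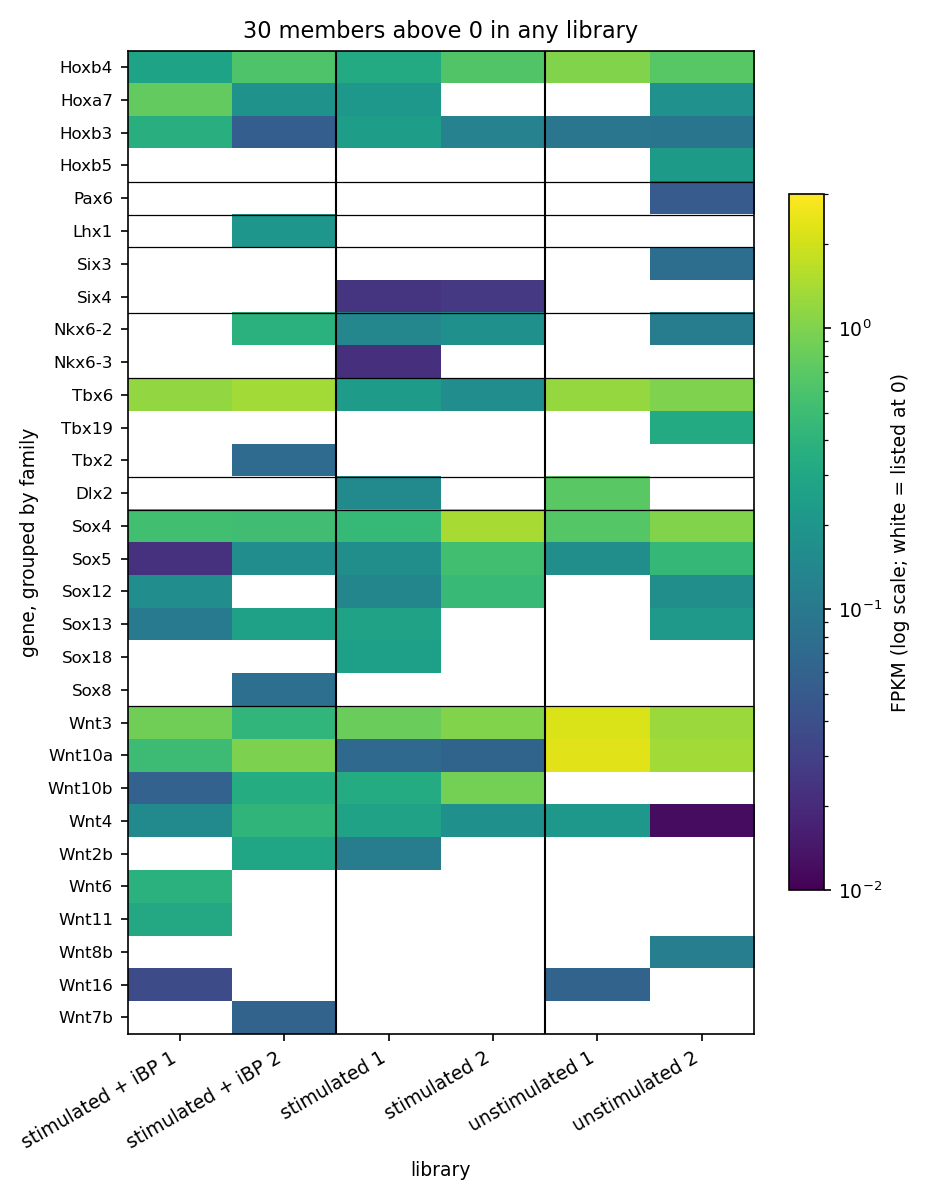
FPKM of 30 of the 31 genes above 0 in any library, 1 row per gene grouped by family and 1 column per library, on a log colour scale with yellow high, dark blue low and white for 0. Rows filled in all columns are few, and Tbx6 and Wnt10a are lower in both stimulated columns than in the iBP and unstimulated columns.

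By family, silence went furthest in Irx, homeodomain factors of heart and neural patterning, with 6 of 6 genes at 0 in all libraries. In Hox, the factors that set position along the body axis, 35 of 39 were at 0; all 9 Hoxc and all 9 Hoxd genes were silent, and detection was confined to Hoxa7, Hoxb3, Hoxb4 and Hoxb5. In Pax, paired-box factors of eye, kidney, muscle and pancreas, 7 of 8 were at 0, and in Lhx, LIM-homeodomain factors of neural and limb patterning, 7 of 8. In Nkx 13 of 15 were at 0, in Tbx 9 of 12 and in Dlx 5 of 6. In Sox 6 of 19 genes and in Wnt 10 of 19 were above 0 in some library.

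Among the Hox genes above 0, Hoxb4, Hoxb3 and Hoxa7 overlapped between iBP and stimulated libraries, and Hoxb5 was seen in 1 unstimulated library. Hoxb4, a factor known for self-renewal of blood stem cells, read 0.275 and 0.629 FPKM with iBP, 0.330 and 0.637 in stimulated and 1.01 and 0.675 in unstimulated libraries. Its unstimulated values lay above the other 4. Hoxb3, its neighbour on chromosome 11, read 0.354 and 0.0546 FPKM with iBP, 0.244 and 0.124 in stimulated and 0.0940 and 0.0921 in unstimulated libraries. Hoxa7 read 0.769 and 0.187 FPKM with iBP, 0.207 and 0 in stimulated and 0 and 0.181 in unstimulated libraries. The Hoxa7 mean with iBP was thus set by replicate 1, and replicate 2 was close to the higher library of each other group.

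The start regions of 3 detected genes and 4 silent ones are shown to place the CpG dinucleotides that KDM2B is known to bind. They are RefSeq windows of 300 bases (GRCm38.p6), printed 5′ to 3′ on the gene's strand, with capitals marking every CG. CG reads the same on both strands and was present in 94.6% of the 32851 windows of the table, with a median of 7 per window (quartiles 3 and 20). Of the 138 genes 93 (67.4%) had a window and the rest had none, so the whole group was not compared.
The detected genes were Wnt3 (chr11:103773925-103774224, plus strand, 24 CG), Tbx6 (chr7:126781233-126781532, plus strand, 7 CG) and Sox4 (chr13:28953650-28953949, minus strand, 12 CG).
Wnt3: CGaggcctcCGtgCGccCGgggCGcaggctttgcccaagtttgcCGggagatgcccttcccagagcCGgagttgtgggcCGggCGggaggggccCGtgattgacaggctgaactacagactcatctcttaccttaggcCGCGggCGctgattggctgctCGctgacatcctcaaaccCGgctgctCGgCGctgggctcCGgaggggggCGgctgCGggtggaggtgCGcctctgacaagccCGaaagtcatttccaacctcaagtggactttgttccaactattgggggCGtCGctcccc
Tbx6: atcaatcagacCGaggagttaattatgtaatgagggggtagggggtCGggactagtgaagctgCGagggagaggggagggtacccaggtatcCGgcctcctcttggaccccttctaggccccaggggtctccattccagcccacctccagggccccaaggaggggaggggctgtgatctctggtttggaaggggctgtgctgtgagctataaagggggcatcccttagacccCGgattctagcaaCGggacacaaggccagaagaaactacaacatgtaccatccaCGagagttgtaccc
Sox4: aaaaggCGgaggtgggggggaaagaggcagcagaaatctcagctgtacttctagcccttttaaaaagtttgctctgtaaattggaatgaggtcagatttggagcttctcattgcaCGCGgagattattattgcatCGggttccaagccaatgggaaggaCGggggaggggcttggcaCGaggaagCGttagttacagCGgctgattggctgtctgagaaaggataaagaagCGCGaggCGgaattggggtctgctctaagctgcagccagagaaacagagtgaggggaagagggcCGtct
The silent genes, 1 from each of 4 families, were Hoxa10 (chr6:52240805-52241104, minus strand, 12 CG), Pax1 (chr2:147364744-147365043, plus strand, 13 CG), Nkx1-1 (chr5:33434041-33434340, minus strand, 37 CG) and Sox1 (chr8:12395269-12395568, plus strand, 37 CG).
Hoxa10: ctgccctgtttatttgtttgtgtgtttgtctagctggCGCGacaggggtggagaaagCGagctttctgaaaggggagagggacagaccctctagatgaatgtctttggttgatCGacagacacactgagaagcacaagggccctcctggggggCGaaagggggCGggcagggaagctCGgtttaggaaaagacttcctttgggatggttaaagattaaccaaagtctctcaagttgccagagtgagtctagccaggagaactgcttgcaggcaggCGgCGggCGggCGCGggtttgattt
Pax1: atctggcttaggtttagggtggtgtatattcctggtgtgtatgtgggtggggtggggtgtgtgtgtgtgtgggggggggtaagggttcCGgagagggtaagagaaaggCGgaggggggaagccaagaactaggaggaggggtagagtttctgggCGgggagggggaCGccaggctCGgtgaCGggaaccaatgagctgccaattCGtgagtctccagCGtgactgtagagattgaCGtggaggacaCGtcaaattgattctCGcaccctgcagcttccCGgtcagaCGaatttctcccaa
Nkx1-1: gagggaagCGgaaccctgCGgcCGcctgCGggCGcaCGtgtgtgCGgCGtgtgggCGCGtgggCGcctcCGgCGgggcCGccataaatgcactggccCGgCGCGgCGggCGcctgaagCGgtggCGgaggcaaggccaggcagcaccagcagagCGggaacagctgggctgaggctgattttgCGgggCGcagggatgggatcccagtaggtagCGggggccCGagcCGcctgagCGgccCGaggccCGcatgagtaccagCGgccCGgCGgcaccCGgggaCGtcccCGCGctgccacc
Sox1: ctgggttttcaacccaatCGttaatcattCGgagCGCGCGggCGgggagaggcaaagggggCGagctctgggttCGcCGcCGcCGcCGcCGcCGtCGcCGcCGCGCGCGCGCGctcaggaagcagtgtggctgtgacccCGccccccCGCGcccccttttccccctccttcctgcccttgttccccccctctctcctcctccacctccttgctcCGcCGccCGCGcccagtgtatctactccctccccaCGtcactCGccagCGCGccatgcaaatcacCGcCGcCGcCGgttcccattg
The Nkx1-1 and Sox1 windows were above the upper quartile of all windows, as was that of Wnt3, and the Tbx6 window was at the median. Wnt3, detected in all 6 libraries, had 24 CG, more than the windows shown for silent Hoxa10 and Pax1. Hoxa10 had 2 windows, of which 1 is shown.

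Only 4 of the 138 genes reached 1 FPKM in at least 2 libraries, the level required for the test: Wnt10a, Tbx6, Wnt3 and Sox4. The remaining 134 were too low, so a test of change was made for the 4 that passed this filter and not for the group. The test was limma on log2(FPKM + 1), fitted over all 10436 genes that passed, with Benjamini-Hochberg adjustment over them. In stimulated with iBP against stimulated libraries 0 of the 4 passed an adjusted p of 0.05 (1, Tbx6, had an unadjusted p under 0.05), where 0.00958% of all genes tested did. In iBP against unstimulated libraries 0 of 4 passed (0 unadjusted; 1.75% of all genes), and in stimulated against unstimulated 0 of 4 (2 unadjusted, Wnt10a and Tbx6; 1.29% of all genes). These 3 comparisons share libraries. The filter itself bears on them: Wnt10a reached 1 FPKM in the unstimulated libraries alone, and Tbx6 in both iBP libraries and 1 unstimulated library, so each entered the test through groups where it is high, and its unadjusted p against the stimulated group is no independent support for a difference. Wnt3 entered through both unstimulated libraries and 1 stimulated library, and Sox4 through 1 stimulated and 1 unstimulated library.

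Tbx6, the T-box factor that specifies paraxial mesoderm in the embryo, had the largest difference with iBP of the 4 on the log2(FPKM + 1) scale. It read 1.19 and 1.37 FPKM with iBP, 0.231 and 0.163 in stimulated and 1.20 and 0.986 in unstimulated libraries. Both iBP values thus lay near the unstimulated ones, and both stimulated values were below all others. The iBP mean of 1.28 ± 0.129 FPKM was 6.48 times the stimulated mean of 0.197 ± 0.0476 (SD, n = 2 each). On the log2 scale, where the added 1 understates changes of low values, the difference was 0.93 ± 0.36 (SE; 95% interval 0.14 to 1.71), and it did not pass adjustment over all genes in limma (unadjusted p = 0.0249, adjusted p = 0.998; 0.783 to 1 over the alternatives); with a pseudocount of 0.1 it was 2.22 (adjusted p = 0.999). Stimulated against unstimulated differed by −0.81 ± 0.36 (−1.59 to −0.02; adjusted p = 0.452), and iBP against unstimulated by 0.12 ± 0.36 (−0.67 to 0.91; adjusted p = 0.943). Tbx6 lies on chromosome 7 (GRCm38, 126781483 to 126785560, plus strand), 305 bases from Ppp4c on the other strand, a phosphatase gene at 81.7 and 80.7 FPKM with iBP, 102 and 94.2 in stimulated and 135 and 151 in unstimulated libraries. Ppp4c was lowest with iBP, where the mean of Tbx6 was highest. Ypel3, 968 bases away on the same strand as Tbx6, read 5.34 and 2.51 FPKM with iBP, 3.16 and 3.48 in stimulated and 6.31 and 5.88 in unstimulated libraries, and its iBP values span the stimulated ones. Whether reads of these neighbours were given to Tbx6 was not tested, and the strand of the libraries is not given in the sources used here.

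**Figure D3:**
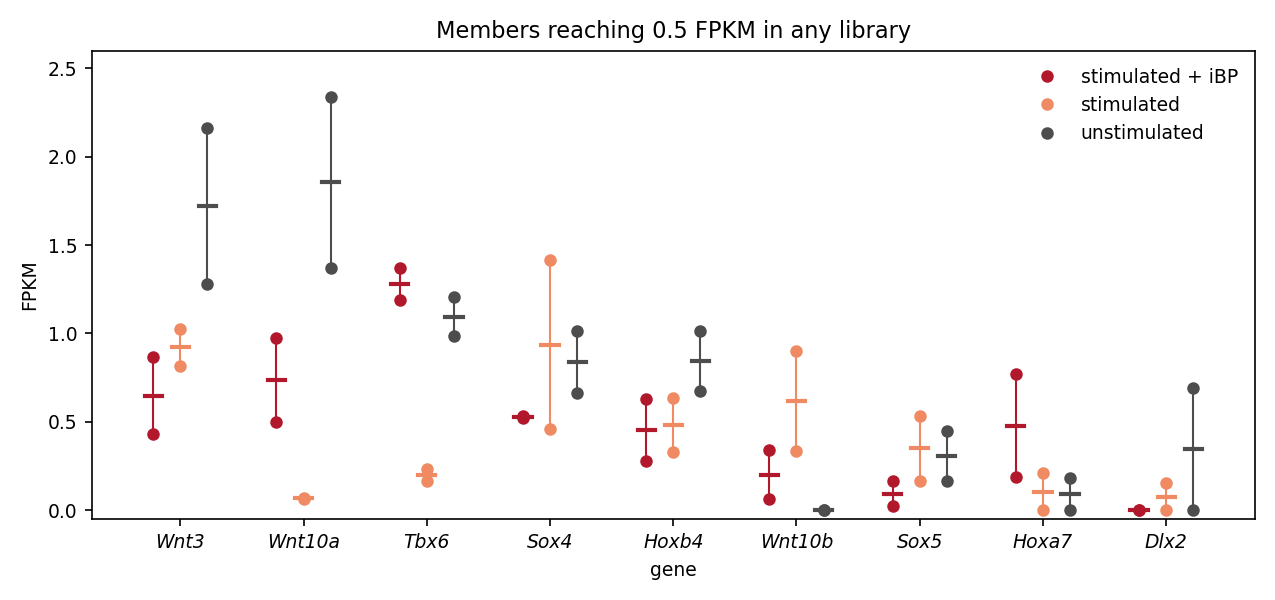
FPKM of the 9 genes that reached 0.5 FPKM in any library, with 1 point per library, a line joining the 2 libraries of a group and a bar at their mean; each gene has its groups from stimulated with iBP to unstimulated. Tbx6 and Wnt10a have both iBP points above both stimulated points, and the other 7 genes do not.

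Wnt10a, a canonical WNT ligand of skin, tooth and hair development, had the highest value of any gene in the group. It read 0.50 and 0.972 FPKM with iBP, 0.0696 and 0.0622 in stimulated and 2.34 and 1.37 in unstimulated libraries. The 3 groups did not overlap, with stimulated lowest and unstimulated highest. The iBP mean of 0.736 ± 0.334 FPKM was 11.2 times the stimulated mean of 0.0659 ± 0.00523 and 0.396 times the unstimulated mean of 1.86 ± 0.685 (SD, n = 2 each). Both stimulated values lie below the detection level of 0.1 FPKM, so the first of these ratios is imprecise. Stimulated against unstimulated differed by −1.40 ± 0.38 on the log2(FPKM + 1) scale (95% interval −2.24 to −0.56), and it did not pass in limma (unadjusted p = 0.00352, adjusted p = 0.131; 0.0849 to 0.443 over the alternatives); with a pseudocount of 0.1 it was −3.51 (adjusted p = 0.157). With iBP against stimulated the difference was 0.69 ± 0.38 (−0.15 to 1.53; adjusted p = 0.998; 0.930 to 1 over the alternatives; 2.27 with a pseudocount of 0.1), and with iBP against unstimulated −0.71 ± 0.38 (−1.55 to 0.13; adjusted p = 0.501). Wnt10a was the only 1 of the 122 genes below 0.1 FPKM in both stimulated libraries that was at or above it in both iBP libraries, against 1.35% of such genes in the table. It was also above that level in both unstimulated libraries. The other such switches at 0.1 FPKM were 0 from iBP to stimulated (1.26% of the table), 0 either way between iBP and unstimulated (1.51% on and 1.26% off with iBP), and, in stimulated against unstimulated, Hoxb3 and Wnt10b on (1.76%) and Wnt10a off (1.33%). No other annotated gene lies within 2000 bases of Wnt10a on chromosome 1 (74791516 to 74804179, plus strand).

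In the table as a whole, 12.3% of the genes above 0 in any library had both iBP values above both stimulated values, and 17.1% had both below. Among the 31 genes of the group above 0 in any library, 2 lay above (Tbx6 and Wnt10a) and 2 below (Sox5 and Six4). Both counts are below the share of the table, and this was not tested. A gene above 0 in 1 library alone cannot meet this rule. That held for 13 of the 31 genes, against 1713 of the 16033 genes of the table above 0 in any library. The shares here and in the other 2 comparisons are therefore not like for like, and no conclusion is drawn from them. Against unstimulated libraries, 2 genes lay above with iBP (Hoxa7 and Wnt10b; 15.1% of the table) and 5 below (Wnt10a, Sox5, Hoxb4, Wnt3 and Sox4; 18.5% of the table). In stimulated against unstimulated libraries 4 lay above (Nkx6-2, Hoxb3, Wnt10b and Six4; 16% of the table) and 4 below (Wnt10a, Tbx6, Hoxb4 and Wnt3; 15.6% of the table).

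Wnt3, a canonical ligand needed for formation of the embryonic axis, read 0.865 and 0.429 FPKM with iBP, 0.815 and 1.03 in stimulated and 2.16 and 1.28 in unstimulated libraries. It was lower in all 4 stimulated libraries, with or without iBP, than in both unstimulated ones. It differed by −0.23 ± 0.37 with iBP against stimulated (log2, SE; 95% interval −1.04 to 0.58; limma adjusted p = 0.998), by −0.72 ± 0.37 with iBP against unstimulated (−1.53 to 0.09; 0.478) and by −0.49 ± 0.37 in stimulated against unstimulated (−1.30 to 0.33; 0.712). Sox4, an HMG-box factor known from early lymphocyte development, read 0.533 and 0.523 FPKM with iBP, 0.457 and 1.42 in stimulated and 0.660 and 1.01 in unstimulated libraries. Stimulated replicate 2 stood apart within its group, and the Sox4 difference with iBP was −0.30 ± 0.39 (−1.16 to 0.57; adjusted p = 0.998). The median half-width of such an interval over all genes tested was 0.57, before adjustment for the number of genes. Changes smaller than about that size could not be resolved for most genes, and larger ones also failed after adjustment. Among them were Tbx6 at 0.93 with iBP against stimulated and Wnt10a at −1.40 in stimulated against unstimulated libraries.

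**Figure D4:**
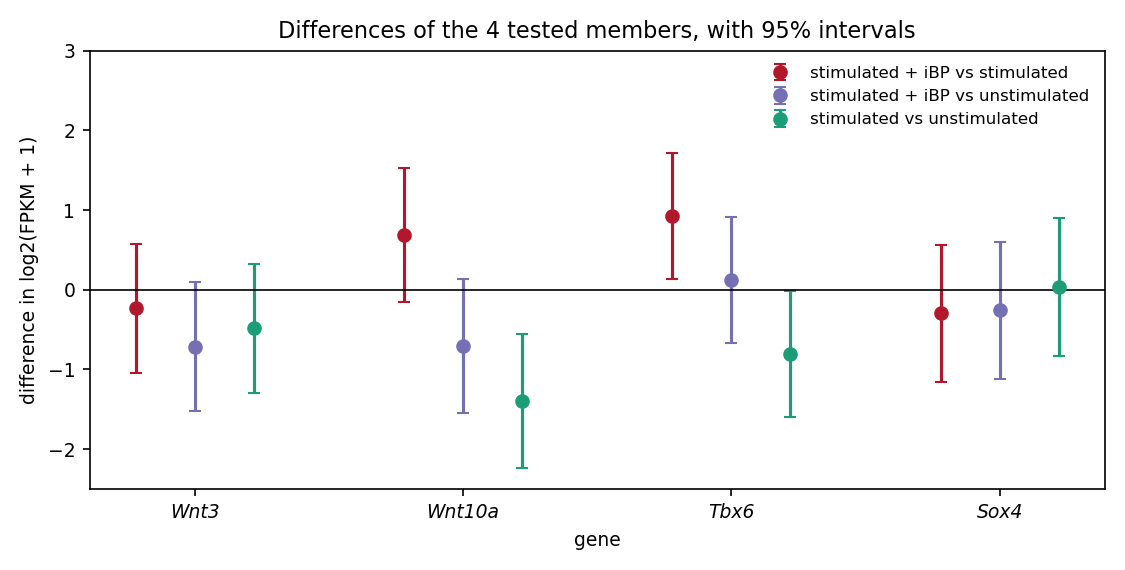
Differences in log2(FPKM + 1) of the 4 tested genes in the 3 comparisons, with 95% intervals from the limma fit before adjustment for the number of genes. The interval of Tbx6 lies above 0 for iBP against stimulated, those of Tbx6 and Wnt10a lie below 0 for stimulated against unstimulated, and the other 9 include 0.

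The other Wnt and Sox genes that reached 0.5 FPKM were not tested. Wnt10b, a paralogue of Wnt10a known from T-cell and bone marrow biology, read 0.0603 and 0.341 FPKM with iBP and 0.335 and 0.902 in stimulated libraries, and was listed at 0 in both unstimulated ones. It was thus above 0 in all 4 stimulated libraries, with or without iBP. Sox5, a SoxD factor of cartilage and neural development, read 0.0224 and 0.163 FPKM with iBP, 0.166 and 0.534 in stimulated and 0.166 and 0.449 in unstimulated libraries. Both iBP values were below the other 4. The Sox5 gene overlaps several annotated antisense transcripts, and without strand their reads cannot be told apart. Among the antisense transcripts only Sox5os3 had its own values, listed at 0 in every library. Dlx2, a homeodomain factor of forebrain and jaw, was at 0 in both iBP libraries and read 0.151 and 0 in stimulated and 0.690 and 0 in unstimulated libraries, so each of its groups without iBP rests on 1 library. Wnt4, a ligand of kidney and gonad development that was above 0 in all libraries, read 0.153 and 0.420 FPKM with iBP, 0.270 and 0.176 in stimulated and 0.207 and 0.0120 in unstimulated libraries, with overlap between all groups. Of the rest of the genes seen in more than 1 group, Wnt2b, Wnt16, Sox12, Sox13 and Nkx6-2 stayed below 0.5 FPKM in every library and were each at 0 in at least 1 iBP or unstimulated library. Nkx6-2, a homeodomain factor of neural patterning, read 0 and 0.378 FPKM with iBP, 0.141 and 0.174 in stimulated and 0 and 0.112 in unstimulated libraries. Sox12, a SoxC factor like Sox4, read 0.163 and 0 FPKM with iBP, 0.137 and 0.471 in stimulated and 0 and 0.168 in unstimulated libraries. Sox13, a SoxD factor like Sox5, read 0.108 and 0.260 FPKM with iBP, 0.267 and 0 in stimulated and 0 and 0.220 in unstimulated libraries. In all 3 genes the iBP range overlapped that of both other groups.

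The wider set of developmental Polycomb targets, 80 genes outside these families such as Gata4, Foxa2, Olig2, Twist1 and Cdkn2a, was mostly silent too. Of them 64 were at 0 in all 6 libraries, and 3 and 6 reached 0.1 FPKM with iBP, 9 and 3 in stimulated and 4 and 4 in unstimulated libraries. Switched on in both iBP libraries alone were 0 of the 80. Cdkn2b, which encodes a cell cycle inhibitor, and Bmp7, a signalling ligand gene, were high enough for the test, and 0 of 2 passed in any comparison (0 unadjusted). Cdkn2b read 1.24 and 2.19 FPKM with iBP, 1.91 and 1.14 in stimulated and 1.05 and 0.402 in unstimulated libraries. Bmp7 read 0.956 and 1.24 FPKM with iBP, 1.14 and 0.508 in stimulated and 0.473 and 1.04 in unstimulated libraries, with overlap between all groups.

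The Polycomb machinery itself was present in all groups. Of 35 PRC1 and PRC2 subunit genes, 30 were tested. With iBP against stimulated 0 passed (1 unadjusted), where 0.00958% of all genes tested did. The median difference was −0.08, against −0.03 over all genes tested. Against unstimulated 1 of 30, Ezh2, was higher with iBP (1.75% of all genes tested passed) and in stimulated libraries (1.29%). Ezh2, the catalytic subunit of PRC2, read 14.1 and 15.6 FPKM with iBP, 13.5 and 17.8 in stimulated and 7.01 and 5.76 in unstimulated libraries. It rose by 1.11 ± 0.22 with iBP against unstimulated (log2, SE; adjusted p = 0.0296) and by 1.17 ± 0.22 in stimulated against unstimulated (adjusted p = 0.0263). The first call ended without either iBP library (0.151 and 0.240) or either unstimulated library (0.0611 and 0.0841), and the second without stimulated replicate 1 (0.0587) or 2 (0.276), unstimulated replicate 1 (0.0512) or 2 (0.0845), or iBP replicate 2 (0.0529). Rnf2, the main E3 ligase for H2AK119ub1, read 58.3 and 52.3 FPKM with iBP, 55.4 and 44.3 in stimulated and 54.1 and 63.6 in unstimulated libraries, with overlap between all groups. Kdm2b read 41.3 and 39.3 FPKM with iBP, 43.5 and 48.7 in stimulated and 56.5 and 56.2 in unstimulated libraries. It was lowest with iBP, and did not pass in any comparison.

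Several genes of the WNT pathway had levels far above those of the ligands. Of 41 receptor and pathway genes 18 were tested. With iBP against stimulated 0 passed (0 unadjusted), where 0.00958% of all genes tested did. The median difference was 0.00, against −0.03 over all genes tested. Against unstimulated libraries 2 of the 18 passed with iBP (Sfrp2 and Tcf7; 1.75% of all genes) and 1 in stimulated libraries (Tcf7; 1.29%). Tcf7 and Lef1, the nuclear factors of the canonical pathway that are also T-cell regulators, were the pathway transcription factors with the highest levels. Lef1 read 77.0 and 76.2 FPKM with iBP, 76.1 and 75.8 in stimulated and 66.1 and 74.0 in unstimulated libraries. Tcf7 read 72.0 and 57.5 FPKM with iBP, 65.3 and 69.8 in stimulated and 134 and 128 in unstimulated libraries. It fell with iBP against unstimulated (−1.01 ± 0.14, limma adjusted p = 0.0033), a call that ended without iBP replicate 2 (0.0606). Stimulated against unstimulated libraries gave a like fall (−0.95 ± 0.14, limma adjusted p = 0.00559), which kept its call with any 1 library left out. Sfrp2, a secreted WNT antagonist gene, read 6.18 and 3.78 FPKM with iBP, 2.37 and 4.37 in stimulated and 0.862 and 0.627 in unstimulated libraries, and rose with iBP against unstimulated (1.75 ± 0.36, adjusted p = 0.031). That call ended without iBP replicate 1 (0.282) or 2 (0.0742) or unstimulated replicate 1 (0.0916) or 2 (0.0828). Wls, needed for secretion of WNT ligands, read 10.1 and 19.8 FPKM with iBP, 15.9 and 20.3 in stimulated and 10.5 and 15.1 in unstimulated libraries. Frizzled genes Fzd2, Fzd8 and Fzd10 and the co-receptor gene Lrp5 were at 0 in all libraries. Of 9 HOX cofactor genes 4 were tested and 0 passed with iBP against stimulated (0 unadjusted), where 0.00958% of all genes tested did. Pknox1, the highest of the HOX cofactor genes, read 10.7 and 13.7 FPKM with iBP, 9.40 and 9.97 in stimulated and 15.9 and 15.7 in unstimulated libraries.

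The libraries held Treg markers together with those of other cells, and library features moved with some of these results. Foxp3, which defines Treg, read 122 and 124 FPKM with iBP, 121 and 101 in stimulated and 35.5 and 47.1 in unstimulated libraries, and all 8 Treg markers were above 0 throughout. Of the 8, 5 passed as higher with iBP against unstimulated, where 1.75% of all genes tested passed in either direction. The median difference of the 8 was 0.63, against −0.03 over all genes. In stimulated against unstimulated 5 passed as higher (1.29% of all genes tested), with a median of 0.76, against −0.0024. Foxp3 rose by 1.57 with iBP and 1.41 in stimulated libraries, and Gpr83 by 2.36 with iBP and 2.32 in stimulated. With iBP against stimulated 0 passed (limma, 0 unadjusted), where 0.00958% of all genes tested did. The part of the Treg markers in the differences from unstimulated libraries given above was not tested. The summed level of the 10 B-cell markers was 789 and 826 FPKM with iBP, 931 and 885 in stimulated and 866 and 895 in unstimulated libraries, and all 10 were above 0. Stromal and endothelial markers, 12 of 14 above 0 in some library with Pdgfra and Lum at 0, summed to 19.8 and 24.4 FPKM with iBP, 16.9 and 18.2 in stimulated and 29.2 and 28.5 in unstimulated libraries. That order is the order of Wnt10a, but most of the sum came from Pecam1, a gene that lymphocytes also express. Pecam1 read 18.4 and 21.2 FPKM with iBP, 14.4 and 15.4 in stimulated and 26.8 and 24.7 in unstimulated libraries. Of the other markers with the highest means, Cxcl13 and Lyve1 overlapped between the groups. Dcn read 0.706 and 0.538 FPKM with iBP, 1.30 and 0.874 in stimulated and 0 and 1.87 in unstimulated libraries. Both iBP values of Dcn lay below both stimulated ones, and its unstimulated values spanned those of both other groups. Ccl19 was lowest in unstimulated libraries, at 0.239 and 0.138 FPKM. The part of these markers in the Wnt10a values was not tested. Markers of pancreas summed to 45.0 and 68.6 FPKM with iBP, 64.8 and 206 in stimulated and 85.0 and 53.8 in unstimulated libraries, with the developmental factors Ptf1a and Pdx1 at 0. Of the spleen mesenchyme markers Tlx1, Nkx2-5 and Tcf21 were at 0, and of the neural markers 4 of 5. The remaining spleen mesenchyme marker, Nr2f2, read 0.127 FPKM in iBP replicate 1 and 0 elsewhere. Tubb3, the remaining neural marker, read 0.749 and 0.0232 FPKM with iBP, 0 and 0.0329 in stimulated and 0 and 0.203 in unstimulated libraries. Unstimulated replicate 1 had the most genes of the table at 0 (48.4%, against 44.3% to 45.6% in the other libraries) and also the fewest of the 138 above 0. Pax5, a B-cell factor, and Tbx21, which encodes T-bet, the 2 genes left out by name, were each higher than the highest of the 138 in at least 1 library of every group: Pax5 read 3.38 and 3.20 FPKM with iBP, 2.73 and 1.57 in stimulated and 2.05 and 2.86 in unstimulated libraries, and Tbx21 read 1.97 and 2.87 FPKM with iBP, 5.67 and 4.30 in stimulated and 4.18 and 4.03 in unstimulated libraries.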

How the data were processed

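Polyadenylated RNA of wild-type Treg was measured in 6 libraries, 2 per group. The authors deposited FPKM values in 1 table. The submitters' processing notes name HISAT2 2.2.1, StringTie 2.1.1 and mm10; annotation, filters and strand are not stated. Depth is unknown. Separate animals are not named for the libraries, so p-values cover the spread of these samples, which may be technical.

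The 138 genes were matched by symbol; members and lists were chosen with earlier results of these data known. The 10436 genes at 1 FPKM or more in 2 or more libraries were fitted with limma 3.58.1 (R 4.3.3) on log2(FPKM + 1), with all groups in 1 model, a variance trend, two-sided tests and Benjamini-Hochberg adjustment; there were 3 residual and 8.52 prior degrees of freedom, and the procedure was tested on simulated data. Counts by detection level are descriptions; those between pairs of groups were added after values were seen. Genes named are those tested, those reaching 0.5 FPKM, those detected in 1 group alone and those called under an alternative; Wnt4 and single detections were named after values were seen. Of other lists, genes past the test and some of the highest 5 are named. Positions come from GENCODE M21 (GRCm38) and start regions from RefSeq. Alternatives were 16 settings of the fit (scaling, filter, pseudocount, variance, replicate term, each library left out) and 3 detection levels. Values of 1 gene are not reported here. Figures used matplotlib 3.10.9.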

Additional observations from a re-analysis of the deposited data

How the results depend on the processing

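The count of the 138 genes past the test was 0 in all 3 comparisons under each setting run but 1. Without the filter on low values, 1 gene passed with iBP against stimulated and 1 in stimulated against unstimulated. Both calls were Six4, at 0.0240 and 0.0257 FPKM in stimulated libraries and 0 in the other 4 (limma adjusted p = 0.0142 and 0.0155). The count of genes switched on in both iBP libraries alone was 0 under every scaling and level, and 0 to 2 when 1 library was left out, the 1 or 2 arising where a single iBP library remained. With values rescaled to TPM, the iBP minus stimulated difference in detected genes was 2 in place of −0.5, and that in summed level 3.22 in place of 1.03; TPM values are larger, so the level of 0.1 is lower there. With 1 library left out these differences ranged from −2.5 to 1.5 genes and from 0.2002 to 1.86 FPKM. With a pseudocount of 0.1 the iBP against stimulated difference was 2.22 for Tbx6 and 2.27 for Wnt10a, still not past the test. Sox4 in stimulated against unstimulated, 0.04, became −0.0012 with a pseudocount of 0.1 and −0.0199 after quantile normalization, and ranged from −0.10 to 0.40 with 1 library left out; the cause was not tested. The calls of Ezh2, Sfrp2 and Tcf7 also ended without the filter and without the variance trend, and those of Ezh2 and Sfrp2 with a filter at 0.1 FPKM. That of Ezh2 in stimulated against unstimulated also ended with only these groups in the fit (0.0653). With the replicate block 0 of the 138 passed in each comparison, and the calls over all genes were 1 with iBP against stimulated (1 without the block), 109 with iBP against unstimulated (183) and 79 in stimulated against unstimulated (135). With the block both Ezh2 calls (limma adjusted p = 0.0719 with iBP and 0.0670 in stimulated, each against unstimulated) and that of Sfrp2 (0.0794) ended, and those of Tcf7 did not. Equal replicate numbers did not deviate together (correlations across genes of −0.0118, −0.0185 and −0.0462). Such correlations cannot show whether libraries of equal number share an animal or a preparation, because noise within libraries can hide it. Animals are not named, so the pairing is unknown. Over the settings the calls over all genes ranged from 0 to 14, 9 to 215 and 12 to 162 in these comparisons. Depth limits the 107 genes at 0: expression below the detection of these libraries would not show.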
